A study of Mus musculus with 4 samples.

Results

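The CDK inhibitors are the 7 genes of the INK4 family (Cdkn2a, Cdkn2b, Cdkn2c and Cdkn2d) and the CIP/KIP family (Cdkn1a, Cdkn1b and Cdkn1c). The rule takes whole families and uses no measured value. All 7 were among the 27179 genes with an FPKM value (fragments corrected for gene length and library depth). LICs, the Mac-1+/c-Kit+ cells of a murine acute myeloid leukemia driven by retroviral MLL-AF9, were sequenced as RNA, with 2 WT and 2 CD274-null libraries by their labels, which call the cells LSC. Both groups came from bone marrow of C57BL/6 mice aged 6 weeks, and both carry the MLL-AF9 fusion, introduced into lineage-negative fetal liver cells that were then transplanted into lethally irradiated C57BL/6 recipients. By the labels and methods, the CD274-null LICs derive from mice with a knockout of Cd274, the gene of the ligand PD-L1, and the recipients were not described as knockouts. The gate given for the sort does not name the reporter of the retrovirus, the transplantation round of these LICs is not stated, and while the labels describe sorted cells, the methods mention RNA taken from tissue. Nothing states that replicates came from separate mice, so p-values measure the spread between these libraries, which may be technical.

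CDK inhibitors hold cells in the G1 phase. INK4 proteins bind Cdk4 and Cdk6 and keep them from the D-type cyclins, so that the retinoblastoma protein stays active and E2F target genes stay silent. CIP/KIP proteins bind complexes of Cdk2 with cyclin E or A, are induced by p53 (Cdkn1a) or cleared by ubiquitin ligases (Cdkn1b), and in blood stem cells are linked to quiescence. The comparison bears on the study's question of how loss of CD274 affects cell cycle entry of LICs.

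The libraries were checked before the members. Recovered reads on genes came to between 8452662 and 11048767 per library. Cd274 itself did not separate the labels, at 2.80 and 0.945 FPKM for WT and 1.43 and 2.29 for CD274-null, from 118, 35, 46 and 83 recovered reads, so the values do not show the knockout. Below, WT and CD274-null LICs stand for the libraries labelled so, and every direction is taken from these labels. The sorting markers were present in all 4 libraries, Itgam (Mac-1) at 100.2 to 174 and Kit at 6.59 to 19.5 FPKM. The library labelled WT replicate 1 stood apart. It had the lowest Kit, the lowest Cd34 (4.32 against 14.0 to 31.7 FPKM) and an Xist FPKM of 2.57 against 51.1 to 107. The summed FPKM of 11 mature neutrophil markers was 43939 and 9061 for WT and 18600 and 31700 for CD274-null. B and plasma cell markers were 15 genes, of which 5 passed the filter on low values. Their sums reached 208 and 126 for WT, against 446 and 509 for CD274-null. By the rule given below, 3 of the 5 were candidates, all higher in CD274-null, beside 3.63% of all genes tested in either direction. Igkc, the kappa light chain constant gene, was 8.64 and 7.98 FPKM for WT and 214 and 189 for CD274-null (log2 fold change 4.52, adjusted p = 0.00245 by limma). Jchain was 0.370 and 0.514 for WT and 12.3 and 10.5 for CD274-null (adjusted p = 0.0369 by limma), and Ighm 9.04 and 14.1 for WT and 49.1 and 162 for CD274-null. These immunoglobulin genes separated the groups, while the B cell genes Pax5 and Ms4a1 were at or below 0.416 FPKM throughout. Summed FPKM of macrophage markers was 147 and 143 for WT and 89.6 and 106 for CD274-null, of which the adhesion molecule gene Vcam1, the only candidate of that list, made up 117 and 92.3 for WT and 53.7 and 59.8 for CD274-null. Of the 5 macrophage markers tested, 3 were higher and 2 lower in CD274-null (median log2 fold change 0.10). T and NK markers gave low sums, 0.949 and 2.42 for WT and 6.12 and 3.92 for CD274-null. Of the 15 myeloid markers Mpo, the myeloperoxidase gene, was a candidate, at 444 and 403 for WT and 1427 and 925 for CD274-null. Erythroid sums were 3.06 and 55.8 for WT and 5.41 and 0.701 for CD274-null, so that WT replicate 2 stood apart, with Hbb-bs at 26.9 and Hba-a1 at 18.1 FPKM. Stromal sums were 15.5 and 34.8 for WT and 29.5 and 61.1 for CD274-null. The part of these markers in the results below was not tested, except where a value without 1 library is given.

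Of the 7 members, 6 passed the filter of a mean FPKM of at least 0.5 and were tested with the other genes by limma on log2(FPKM + 0.5), a scale that understates the change of low genes. Cdkn2b did not pass. Candidates had to change more than 1.5-fold at an unadjusted p under 0.01. By this rule 1 of the 6 members, Cdkn2a, was a candidate, lower in the CD274-null LICs. Over all 13230 genes tested, 3.63% were candidates, and 1.24% were candidates lower in CD274-null LICs. None of the members reached an adjusted p under 0.05 (Benjamini-Hochberg over all genes tested), a level that 0.0756% of all genes reached. An unadjusted p under 0.05 was found for 3 members (Cdkn2a, Cdkn2c and Cdkn2d) and for 13.7% of all genes. The groups did not overlap for the same 3 members. Cdkn2a and Cdkn2d were below both WT libraries, as were 21.8% of all genes, and Cdkn2c was above both, as were 25.6%. The median log2 fold change of the 6 members was -0.034, beside 0.012 over all genes tested.

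**Figure D1:**
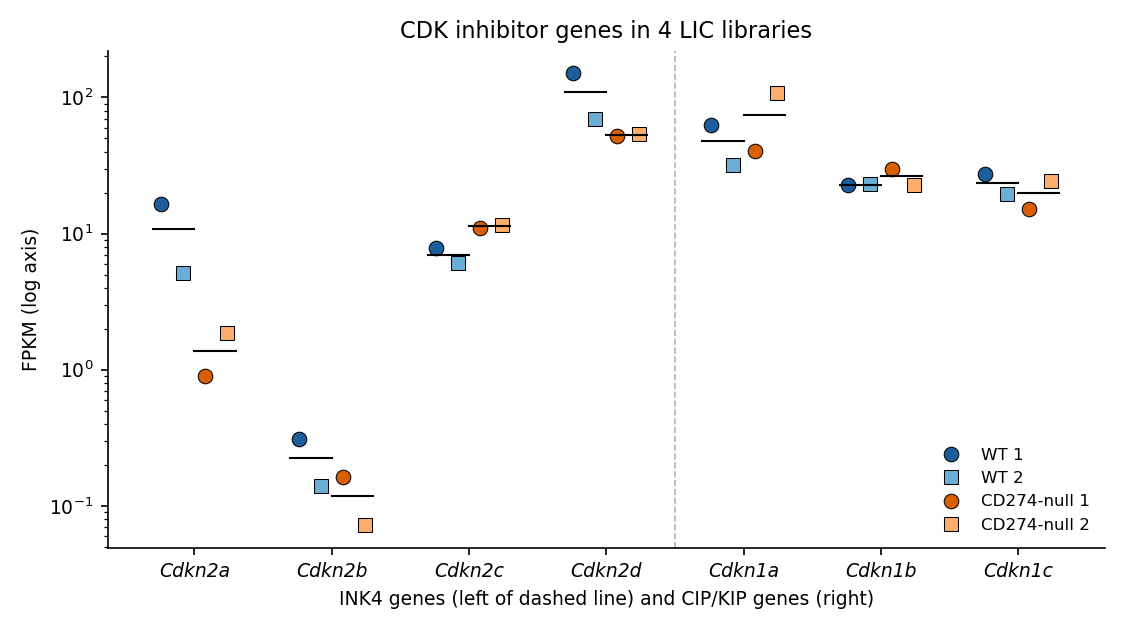
FPKM (log axis) of the 4 INK4 and 3 CIP/KIP genes in each library, with points for libraries and horizontal lines for the means of the 2 libraries of a group. The CD274-null points lie below both WT points for Cdkn2a and Cdkn2d and above both for Cdkn2c, and the groups overlap for the 3 CIP/KIP genes.

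The levels spanned over 3 decades, as the plot of FPKM by gene shows. FPKM is scaled by gene length, but the lengths used are not given, and those implied were shorter than the annotated exons for some members (1108 of 2686 bases for Cdkn2c, 2410 of 4552 for Cdkn1b), so the order of near levels, such as those of Cdkn2c and Cdkn2a, may depend on them. Cdkn2d was the highest of the 7 in 3 of 4 libraries, and Cdkn1a led in CD274-null replicate 2. Both genes overlapped across libraries, at 52.0 to 150 FPKM for Cdkn2d and 32.1 to 108 for Cdkn1a. Cdkn1b (22.7 to 29.9) and Cdkn1c (15.1 to 27.6) came next and changed places between libraries. Cdkn2c (6.04 to 11.6) and Cdkn2a (0.896 to 16.4) followed, with Cdkn2a above Cdkn2c only in WT replicate 1. Cdkn2b was last in all 4 libraries.

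Cdkn2a encodes both p16Ink4a, an inhibitor of Cdk4 and Cdk6, and p19Arf, which restrains Mdm2 and thereby stabilizes p53. The gene lies on chromosome 4 of GRCm38 from 89274473 to 89294619 on the minus strand. Its 2 transcripts start from separate first exons, at 89281986 to 89282192 for p16Ink4a and 89294334 to 89294653 for p19Arf in GENCODE, and are joined to the same exon 2 at 89276645 to 89276985, which is read in different frames. The junctions below show why a single value per gene cannot separate the products, with the last 30 bases of exon 1 in lower case and the first 30 bases of exon 2 in capitals.
p16Ink4a transcript (Cdkn2a-201): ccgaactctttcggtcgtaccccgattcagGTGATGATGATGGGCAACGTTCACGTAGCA
p19Arf transcript (Cdkn2a-202): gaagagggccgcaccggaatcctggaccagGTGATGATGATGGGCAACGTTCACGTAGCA
Of 1172 exonic bases, 575 (49.1%) belong to both transcripts, 277 only to that of p16Ink4a and 320 only to that of p19Arf. The length implied by the FPKM and reads of Cdkn2a was 1139 bases, nearer to that union than to either transcript (852 and 895 bases). The Cdkn2a values therefore pool both products, as far as this estimate shows.

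**Figure D2:**
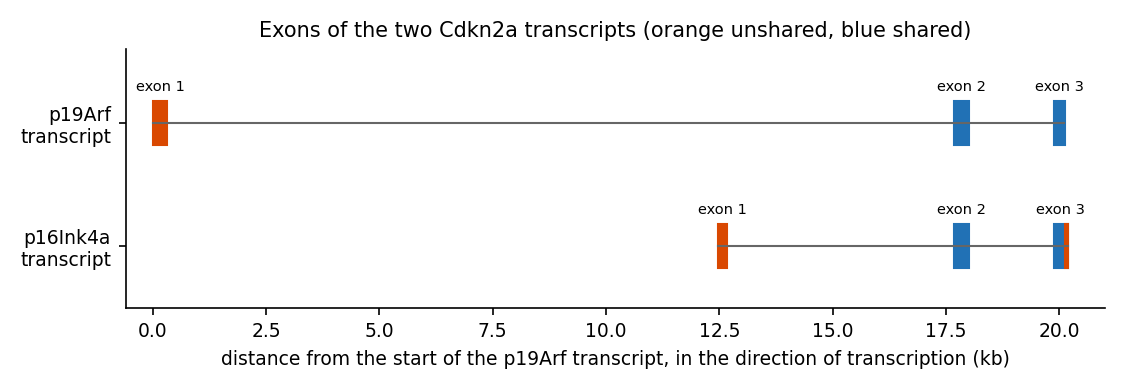
Exons (boxes, to scale) of the p19Arf and p16Ink4a transcripts of Cdkn2a against the distance in kb from the p19Arf start, with shared bases in blue and unshared bases in orange. Exon 2 and 234 bases of exon 3 are shared, and each transcript has its own exon 1.

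Among the tested members, Cdkn2a had the log2 fold change of largest size, though not the largest difference in FPKM. Its FPKM was 16.4 and 5.10 in the WT LICs and 0.896 and 1.86 in the CD274-null LICs, from 215, 59, 9 and 21 recovered reads. Both CD274-null libraries were below both WT libraries, and the WT libraries themselves differed more than 3-fold. The means were 10.7 ± 7.96 (SD, n = 2) and 1.38 ± 0.679 (SD, n = 2), so the CD274-null mean was 12.8% of the WT mean. The log2 fold change was -2.42 (SE 0.58, unadjusted p = 0.00548 and adjusted p = 0.269 by limma). An exact permutation of 2 against 2 libraries cannot go below p = 0.33. The spread of Cdkn2a within groups was high, with a residual SD at percentile 94.4 of all tested genes. The call rested on several libraries. Cdkn2a was no longer a candidate without WT replicate 1 (-1.63, adjusted p = 0.311), without CD274-null replicate 1 (-2.04, adjusted p = 0.569) or without CD274-null replicate 2 (-2.80, adjusted p = 0.954), each by limma. The direction was kept under all 16 alternatives and the call under 8. In bulk RNA, fewer cells expressing a gene and less RNA per cell cannot be told apart.

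Upstream of Cdkn2a, the start of each product has its own promoter. The 120 bases before each start in RefSeq (GRCm38.p6) are shown, 5′ to 3′ on the minus strand, with GC boxes (GGGCGG on either strand) in capitals, because the FPKM value cannot say which of these starts was used.
p19Arf start, chr4:89294620-89294739: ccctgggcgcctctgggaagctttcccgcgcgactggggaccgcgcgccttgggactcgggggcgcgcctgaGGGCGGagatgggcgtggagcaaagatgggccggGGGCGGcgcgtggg
p16Ink4a start, chr4:89282193-89282312: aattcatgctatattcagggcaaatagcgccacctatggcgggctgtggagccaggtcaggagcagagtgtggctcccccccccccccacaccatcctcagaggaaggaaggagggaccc
The p19Arf start had 2 GC boxes within 250 bases and the p16Ink4a start 0, beside 32.7% of 32851 RefSeq windows of that length with at least 1. GENCODE begins p19Arf exon 1 further upstream, at 89294653, so the last bases of the p19Arf window lie within that exon. They hold the GC box nearest the RefSeq start. The nearest gene with values is Cdkn2b, and Mtap, an enzyme of methionine salvage that lies 93383 bases from Cdkn2a, stood at 11.8 and 8.29 FPKM in the WT LICs and 11.5 and 6.52 in the CD274-null LICs (log2 fold change -0.18, adjusted p = 0.857 by limma). Mtap overlapped between groups, unlike Cdkn2a.

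Cdkn2b encodes p15Ink4b, an inhibitor of Cdk4 and Cdk6 that is induced by TGF-beta and often silenced in myeloid leukemia. It lies on chromosome 4 from 89306289 to 89311032, 11670 bases from Cdkn2a. Its FPKM was 0.310 and 0.141 in the WT and 0.162 and 0.0721 in the CD274-null LICs, from 5, 2, 2 and 1 reads. At this depth no difference could be detected, and no fold is given. The annotated lncRNA Gm12610 overlaps Cdkn2b and was not analysed here, and the strand setting of the counting is not given in the sources used here.

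Cdkn2c encodes p18Ink4c, a brake on cycling of blood stem and progenitor cells, on chromosome 4 from 109660876 to 109666756. Its FPKM was 7.89 and 6.04 in the WT LICs and 10.9 and 11.6 in the CD274-null LICs, from 101, 68, 107 and 128 reads. The CD274-null libraries were both higher, and each group was tight (6.97 ± 1.31 and 11.3 ± 0.483, SD, n = 2). The log2 fold change was 0.67 (SE 0.27, unadjusted p = 0.0466 and adjusted p = 0.356 by limma), so Cdkn2c was not a candidate. It stayed positive when each library was left out (0.49 to 0.85) and was 0.43 after GC correction. Its neighbours differed. The lncRNA 9630013D21Rik, 3288 bases away, was too low to be tested, at 0.0554 and 0.0315 FPKM in the WT LICs and 0.471 and 0.450 in the CD274-null LICs. The ubiquitin-binding factor gene Faf1, 9871 bases away on the other side, was not a candidate, with an FPKM of 22.9 and 14.8 in the WT LICs and 10.8 and 11.5 in the CD274-null LICs.

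Cdkn2d encodes p19Ink4d, an INK4 inhibitor that is distinct from p19Arf, on chromosome 9 from 21288459 to 21291421. It supplied 79.8% to 86.1% of the summed INK4 FPKM of each library. Its FPKM was 150.3 and 69.9 in the WT LICs and 52.0 and 53.5 in the CD274-null LICs, from 2210, 904, 585 and 677 reads. WT replicate 1 was more than 2-fold above any other library, and the CD274-null libraries were nearly equal. The means were 110.1 ± 56.9 and 52.8 ± 1.02 (SD, n = 2). The log2 fold change was -0.95 (SE 0.37, unadjusted p = 0.0395 and adjusted p = 0.349 by limma). Cdkn2d was not a candidate. The size depended on WT replicate 1. Without it the log2 fold change was -0.40, and without WT replicate 2 it was -1.50 (adjusted p = 0.125 by limma), which met the candidate rule. The neutrophil marker sum was highest in WT replicate 1 too, and Kit and Cd34 were lowest there. In the other libraries that sum ran in another order than Cdkn2d. It was 9061 in WT replicate 2, and 18600 and 31700 in CD274-null replicates 1 and 2. The part of these markers in the Cdkn2d values was not tested. The adjacent gene Kri1, which lies 490 bases away, was also highest in WT replicate 1, with an FPKM of 143 and 66.3 in the WT LICs and 82.6 and 77.7 in the CD274-null LICs.

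Cdkn1a encodes p21Cip1, the main CDK inhibitor induced by p53, on chromosome 17 from 29090979 to 29100722. Its FPKM was 63.1 and 32.1 in the WT LICs and 40.7 and 108 in the CD274-null LICs, from 1480, 662, 729 and 2170 reads. The groups overlapped, and the CD274-null libraries were the second lowest and the highest of the 4. The log2 fold change was 0.55 (SE 0.52, unadjusted p = 0.326 and adjusted p = 0.659 by limma), with a residual SD at percentile 93.8 of all genes tested. Its sign turned on 1 library, since it was -0.15 without CD274-null replicate 2 and 1.25 without CD274-null replicate 1. Of 50-base stretches of the annotated Cdkn1a transcripts, 8.49% also occur in transcripts of 584 other genes, so a part of its reads may be shared.

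The upstream promoter of Cdkn1a is shown because p53 list genes were read beside this gene. The 120 bases before its upstream RefSeq start (GRCm38.p6, chr17:29090859-29090978, plus strand) hold a 20-base match to the p53 consensus, in capitals, that differs from it in at most 1 base.
Cdkn1a upstream start: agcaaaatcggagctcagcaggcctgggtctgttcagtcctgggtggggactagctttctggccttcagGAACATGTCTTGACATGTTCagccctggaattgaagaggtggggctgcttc
Such a match was found in 25 of 32851 windows of 250 bases before a RefSeq start (0.0761%). The downstream RefSeq start of Cdkn1a, at 29093769, had 0 such matches and 2 GC boxes in its window. A match is a description and not evidence of binding.

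Of 20 genes of the p53 list, that is Trp53, its regulators and its targets, 17 were tested and 1, Trp53 itself, was a candidate. Over all genes tested, 3.63% were candidates. Trp53 FPKM was 31.7 and 31.4 in the WT LICs and 66.2 and 54.9 in the CD274-null LICs (log2 fold change 0.92, SE 0.21, unadjusted p = 0.00417 and adjusted p = 0.255 by limma). The list median was 0.074, with 9 genes higher and 8 lower. The share of all genes tested that were highest in a given library was not computed, so such a count is only a description. CD274-null replicate 2 was the highest library for 7 of the 17, as it was for Cdkn1a. Pmaip1, which encodes the BH3-only protein Noxa, reached 243 FPKM there against 58.7 to 74.4 in the other libraries, Plk2 88.0 against 11.8 to 14.8, and Bbc3 (Puma) 11.4 against 3.55 to 4.47. Mdm2 (32.7 to 48.5) and Bax (65.1 to 88.2) varied less, and Bax and Ccng1 were at their lowest in that library. Among 11 immediate-early genes, a list chosen after values were seen, CD274-null replicate 2 was highest for 7 and WT replicate 1 for 4. Their summed FPKM was 3269 and 2092 for WT and 1229 and 3966 for CD274-null, so the pair of libraries highest in Cdkn1a was also highest in that sum. The part of such a response in the Cdkn1a values was not tested.

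**Figure D3:**
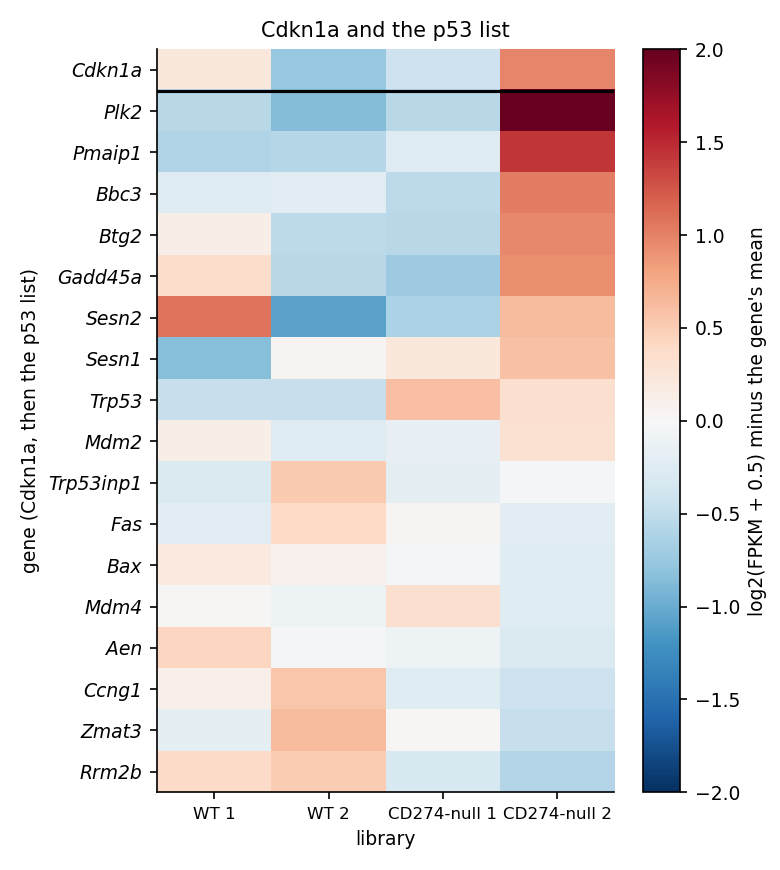
Heat map of log2(FPKM + 0.5) minus the mean of each gene, with libraries in columns and Cdkn1a above the 17 tested genes of the p53 list in rows, ordered by CD274-null replicate 2 (colours end at 2 and -2). Plk2, Pmaip1, Bbc3, Btg2 and Gadd45a share the red cell of Cdkn1a in CD274-null replicate 2, while Bax, Ccng1 and Rrm2b do not.

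Cdkn1b encodes p27Kip1, the inhibitor of Cdk2 that is degraded through Skp2, on chromosome 6 from 134920401 to 134925525. Its highest value was 1.32 times its lowest, the narrowest range of the 7 members over the 4 libraries. Its FPKM was 22.7 and 23.0 in the WT LICs and 29.9 and 22.9 in the CD274-null LICs, from 631, 564, 637 and 548 reads. Of the 4 libraries 3 lay within 22.7 to 23.0, and CD274-null replicate 1 was above them. The log2 fold change was 0.19 (SE 0.23, adjusted p = 0.743 by limma), without CD274-null replicate 1 it was 0.0017, and after GC correction it was 0.31. Lockd, the lncRNA 3567 bases downstream of Cdkn1b, overlapped between groups too, at 32.6 and 22.5 FPKM in the WT and 35.6 and 31.9 in the CD274-null LICs.

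Cdkn1c encodes p57Kip2, the imprinted CIP/KIP member linked to stem cell quiescence, on chromosome 7 from 143458339 to 143461059. Its FPKM was 27.6 and 19.4 in the WT LICs and 15.1 and 24.4 in the CD274-null LICs, from 620, 383, 260 and 472 reads. The groups overlapped, with the lowest and the second highest value in the CD274-null LICs. The log2 fold change was -0.26 (SE 0.32, adjusted p = 0.745 by limma) and turned to 0.076 without CD274-null replicate 1, and it was -0.52 after GC correction. Of the 50-base stretches of Cdkn1c transcripts, 24.9% also occur in 1 other annotated gene, Gm44732, so that reads of both cannot be fully told apart.

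Summed by family, the INK4 genes gave 174.9 and 81.1 FPKM in the WT LICs and 64.0 and 67.0 in the CD274-null LICs. The CIP/KIP genes gave 113 and 74.5 in the WT and 85.8 and 155 in the CD274-null LICs. The INK4 share of the summed FPKM of all 7 genes was 60.7% and 52.1% in the WT and 42.7% and 30.2% in the CD274-null LICs. The INK4 share was thus lower in both CD274-null libraries, whereas the CIP/KIP sums overlapped. Without WT replicate 1, the log2 ratio of the INK4 group means moved from -0.97 to -0.31, and without CD274-null replicate 2 that of the CIP/KIP means went from 0.36 to -0.13. These sums are descriptions without a test.

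**Figure D4:**
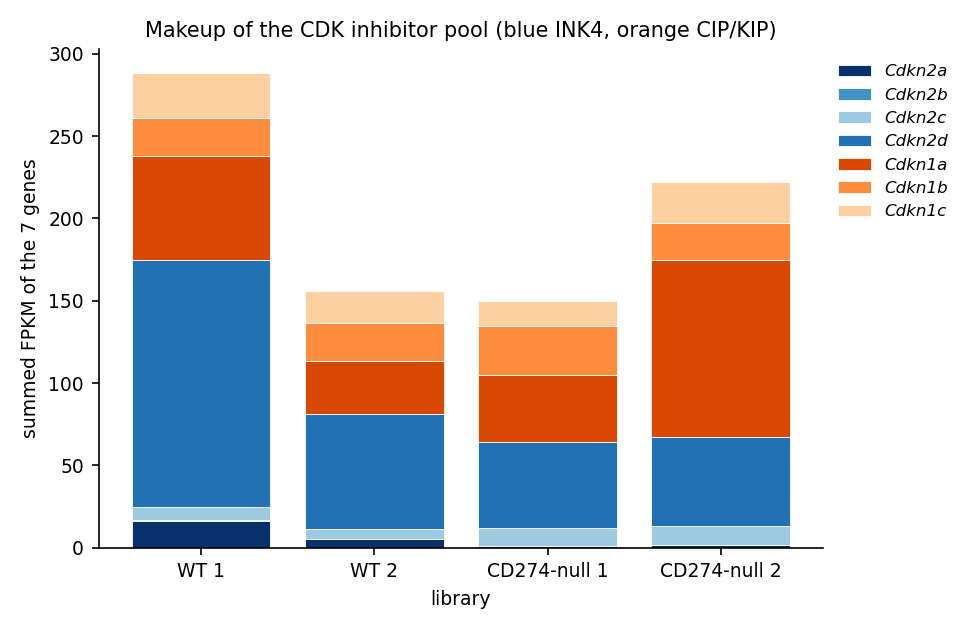
Stacked FPKM of the 7 CDK inhibitor genes in each library, with INK4 genes in blue and CIP/KIP genes in orange. Cdkn2d makes up 52.1% of the sum in WT replicate 1 and 24.1% in CD274-null replicate 2, where Cdkn1a makes up 48.5%.

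The kinases and cyclins that the members act on were read beside them, from a list of 13 genes of which 12 were tested. 3 were candidates, all lower in the CD274-null LICs, beside 1.24% of all genes tested that were candidates lower there. The median log2 fold change of the list was -0.17. Cdk6 stood at 102 and 112 FPKM in the WT LICs and 47.5 and 38.9 in the CD274-null LICs (log2 fold change -1.31, SE 0.21, adjusted p = 0.172 by limma). Among the D-type cyclins, the regulatory partners of Cdk4 and Cdk6, Ccnd1 (3.85 and 7.79 in the WT, 1.76 and 0.847 in the CD274-null) and Ccnd2 (4.78 and 4.82, 1.45 and 0.661) were lower. Ccnd3 was far higher than both, at 178 and 89.5 FPKM in the WT and 148 and 158 in the CD274-null LICs, and overlapped between groups. Cdk4 overlapped as well, at 175 and 110.8 in the WT and 176 and 137 in the CD274-null LICs. Cdk2, the partner of the CIP/KIP proteins, was 55.8 and 59.9 in the WT and 73.6 and 72.7 in the CD274-null LICs and not a candidate (adjusted p = 0.485 by limma).

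Set against their partners, the inhibitors did not separate the groups. Summed INK4 FPKM per summed FPKM of Cdk4 and Cdk6 was 0.631 and 0.364 in the WT LICs and 0.286 and 0.381 in the CD274-null LICs. Summed CIP/KIP FPKM per FPKM of Cdk2 was 2.03 and 1.24 in the WT and 1.17 and 2.13 in the CD274-null LICs. Both ratios overlapped between groups, with WT replicate 1 highest in the first and CD274-null replicate 2 in the second.

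The other 4 pathway lists held no candidate. All 13 genes of the retinoblastoma and E2F list were tested, 6 higher and 7 lower, with a median log2 fold change of -0.14. The turnover list of CIP/KIP proteins, with Skp2, Cks1b and the cullin ligases, had 13 tested genes and a median of -0.043. Skp2 was low and overlapped, at 3.68 and 3.01 FPKM in the WT and 4.62 and 3.0 in the CD274-null LICs. Of 25 regulators of Cdkn2a and Cdkn2b, 22 were tested, with a median of -0.13. Bmi1 and Ezh2, Polycomb genes that repress Cdkn2a, had adjusted p-values of 0.629 and 0.614 (limma), with log2 fold changes of -0.29 and 0.27. The 8 factors of Cdkn1b, FoxO and Akt genes among them, had a median of 0.12.

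For each tested member, the 3 tested genes with the nearest profile were taken by the Euclidean distance between log2(FPKM + 0.5) values, centred on the mean of each gene over the 4 libraries. Over 4 points such a likeness is only a description. Cdkn2a was nearest to Olfm4, a gene of neutrophil granules (distance 0.377), at 1238 and 408 FPKM in the WT and 137 and 211 in the CD274-null LICs. Mir19b-1 (0.780) and Spred2 (0.882) came next for Cdkn2a. Cdkn2d was nearest to Fndc10 (0.115), Glipr2 (0.175) and Asap1 (0.176), all highest in WT replicate 1. Cdkn2c was nearest to Stub1 (0.0407), 2810408I11Rik (0.0492) and Gpsm1 (0.0596). Cdkn1a was nearest to Gm8995 (0.166), Tnfaip2 (0.217) and Socs1 (0.218), all highest in CD274-null replicate 2. Cdkn1b was nearest to Ptgr2 (0.0273), Ptges3l (0.0292) and Rassf2 (0.0423), and Cdkn1c to Phlpp1 (0.131), P4ha1 (0.142) and Flot1 (0.16).

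Among the genes beside the members on the chromosome, 1 was a candidate apart from Cdkn2a. Rab44, a Rab GTPase gene 13406 bases from Cdkn1a, stood at 321 and 365 FPKM in the WT LICs and 618 and 899 in the CD274-null LICs (log2 fold change 1.12, SE 0.29, unadjusted p = 0.00729 and adjusted p = 0.274 by limma). Unlike Cdkn1a, Rab44 did not overlap between groups. Trp53cor1, the p53-induced lncRNA on the other side of Cdkn1a, was at or below 0.340 FPKM in all 4 libraries.

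**Figure D5:**
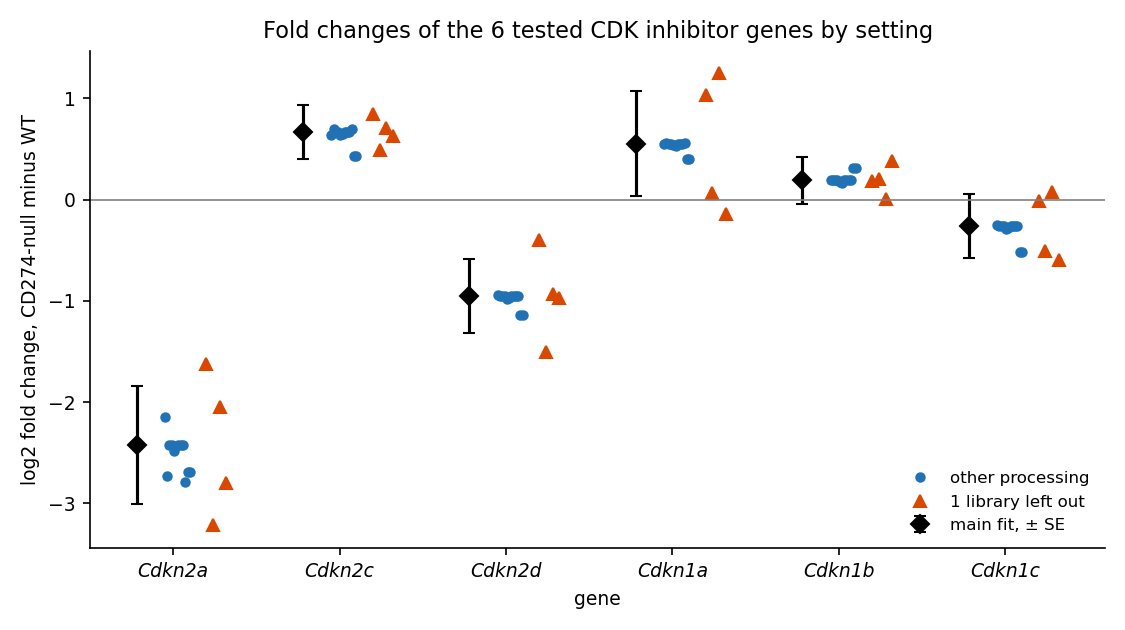
Log2 fold change (CD274-null minus WT) of the 6 tested genes, as fitted with limma on all 4 libraries (diamonds, ± SE), under other processing (circles) and with 1 library left out (triangles). Cdkn2a stays below 0 at -3.22 to -1.63 and Cdkn2c above 0, while Cdkn1a spans -0.15 to 1.25.

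The oligonucleotide pairs that the study lists for RT-PCR of p16 and p21 were matched to 141767 GENCODE transcripts, since they name members. They are shown 5′ to 3′ in lower case.
p16-F: atgctcccgtctttgcagg
p16-R: catcactatcccctcgattctgt
p21-F: gggcgcacgatgttcagaa
p21-R: caccaccaggtcgaaatggg
Both oligonucleotides of the p16 pair matched transcripts of 5730455P16Rik exactly, and their best alignments to Cdkn2a without gaps had 7 and 9 mismatches. Both of the p21 pair matched Nup210, a nuclear pore gene, and had at least 6 mismatches to Cdkn1a. In the LICs, 5730455P16Rik was 8.31 and 7.45 FPKM for WT and 4.76 and 3.01 for CD274-null (log2 fold change -0.96, adjusted p = 0.314 by limma). Nup210 was 60.8 and 56.1 for WT and 67.1 and 72.2 for CD274-null (log2 fold change 0.25, adjusted p = 0.595 by limma). Neither was a candidate.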

How the data were processed

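Total RNA, from sorted cells according to the labels and from tissue according to the methods, was made into TruSeq v2 libraries. Alignment to GRCm38 was done by the authors in TopHat2 2.0.12 (the submitters' processing notes also name CASAVA 1.8.2), and they deposited 1 FPKM value per gene and library. The program, gene lengths and strand setting behind FPKM are not given in the sources used here. RefSeq (GRCm38.p6) gave a symbol for 25275 of the 27179 NCBI gene numbers. Within a gene, whole-number ratios of FPKM gave back the reads (tolerance 0.0001) of all 17083 genes detected in 2 or more libraries (100%), except for any factor that all libraries share, so printed reads are lower bounds.

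Groups were compared with limma 3.58.1 (R 4.3.3), a linear model moderated by eBayes with a trend, for the 13230 genes whose FPKM averaged 0.5 or more, after adding 0.5 and taking log2, with Benjamini-Hochberg adjustment over all of them. The fit was also run on simulated reads with the same extra spread for every gene. In the data that spread differed between genes, so the run is no check on the members. Lists were written by hand, and the members and lists were chosen with earlier results of these data known. Genes named are the members, candidates of the pathway lists, Cdk2, Cdk4 and Cdk6, neighbouring genes, the 3 nearest profiles of each member, genes matched by the listed oligonucleotides and Cd274; other genes, such as Ccnd3, Skp2, Bmi1, Ezh2, Pmaip1, Plk2, Bbc3, Mdm2, Bax, Ccng1, Btg2, Gadd45a, Rrm2b and Xist, were picked after their values were seen. Sequences were read from GENCODE transcripts and RefSeq promoters with Python 3.11.15; Cdkn1c is not among the promoters. Alternatives were other pseudocounts (1 and 0.1), filters, scalings and variance models, voom on recovered reads, a GC correction, a replicate block and leaving out each library. Markers named are the candidates of the marker lists and Itgam, Kit, Cd34, Pax5, Ms4a1, Hbb-bs and Hba-a1, picked after their values were seen; 2 marker genes are not reported here by name.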

Additional observations from a re-analysis of the deposited data

How the results depend on the processing

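With 1 library left out, the lone library of its group was assumed to vary like the other group. Cdkn2a kept its direction under all 16 alternatives and remained a candidate under 8. It was no longer a candidate without a filter, with an FPKM filter of 5 and in a linear model without moderation (log2 fold change -2.42 in each, limma adjusted p = 0.351, 0.257 and 0.567), with equal medians (-2.44, adjusted p = 0.290) and with limma's voom on recovered reads (-2.79, adjusted p = 0.295). The count of CDK inhibitors called was then 0 in each of these 5 fits. Leaving out 1 library gave log2 fold changes of -3.22 to -1.63 for Cdkn2a, -1.50 to -0.40 for Cdkn2d, 0.49 to 0.85 for Cdkn2c, -0.15 to 1.25 for Cdkn1a, 0.0017 to 0.38 for Cdkn1b and -0.60 to 0.076 for Cdkn1c, and 0 to 2 members called. The log2 ratio of summed INK4 FPKM was then -1.42 to -0.31 and that of CIP/KIP -0.13 to 0.72. The 4 candidates of the 6 pathway lists became 2 with the filter of 5, 0 without moderation and 0 to 5 with 1 library left out, 0 being without CD274-null replicate 2. The leave-out, voom and GC fits of the lists were added after seeing the data. Adjusted p of Cdkn2a ranged from 0.125 to 0.954.

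With the replicate number as a replicate block, Cdkn2a stayed at -2.42, 1 member and 5 listed genes were candidates, and no call of a member changed. Deviations of same-numbered libraries did not go together (correlation -0.015), so the numbers are not read as pairs. Over all genes the block gave 526 candidates beside 480, and the model without moderation 170. With GC correction there were 322, with GC correction and the block 283, and without CD274-null replicate 1 or 2 there were 235 or 147. The causes of these shifts were not tested. Depth limited Cdkn2b (1 to 5 reads) and Cdkn2a in the CD274-null LICs (9 and 21 reads).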
